A study of Mus musculus with 4 samples.

Results

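The 39 Hox genes of the mouse were followed through 4 RNA-seq libraries of germ-free colon. They were taken as every row of the deposited gene table whose symbol is Hox, a cluster letter from a to d and a number, 39 of 24016 rows. The Hoxa cluster holds 11 of them, Hoxb 10, Hoxc 9 and Hoxd 9. Each of the 4 conditions has 1 library, from colon pieces of 4 cm excised from germ-free C57BL/6 mice of 7 weeks. An untreated library was set beside 3 from mice killed 4 h after oral gavage. The gavage was the vehicle phosphate-buffered saline (PBS), Escherichia coli of a strain the labels do not name, or the probiotic Lactobacillus rhamnosus GG (LGG). The labels give both bacteria the dose 2x10E9, in colony-forming units per mL by the protocol. The labels give 4 mice to each gavaged group. They do not say whether RNA was pooled, how many mice were left untreated, or from which part of the colon a piece was cut.

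Hox genes encode homeodomain transcription factors that mark position along the head-to-tail axis of the embryo. Within each cluster the genes lie in the order of their paralog numbers, and those with high numbers, at the 5′ end of the cluster, are used nearest the tail. In the gut this order persists into adult life, and paralog group 13 marks the hindgut, from which the distal colon derives. Genes of the same number in different clusters are paralogs, copies of a common ancestral gene. Here groups 1 to 3 are called anterior, 4 to 8 central and 9 to 13 posterior.

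With 1 library per condition there is no replicate check, no test was made, and "higher" and "lower" describe libraries, not treatments. Treatment, animals and the unstated place of the cut cannot be told apart. Levels are in CPM, the field's unit of counts relative to the library total, with totals adjusted by trimmed mean of M-values (TMM) factors. Each log2 ratio has a 95% counting interval, which covers counting error only. The size rule asked for a ratio of at least 2-fold, an interval that left out 0, and a level of at least 1 CPM averaged over the 4 libraries. The libraries held 16289580.0 to 29899371 counts, the PBS library being the shallowest, and a count of 0 allowed up to 0.103 to 0.187 CPM. Summed over all members, Hox genes were at 664 CPM untreated, 708 with PBS, 771 with E. coli and 691 with LGG.

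Of the 39 Hox genes, 27 reached the mean of 1 CPM. The 12 below it included Hoxb1, Hoxd1 and all 9 Hoxc genes. Hoxb1, Hoxc12 and Hoxc13 had no counts in any library, while Hoxd1 was at 0.0623 to 0.137 CPM. Hoxc4, the most abundant Hoxc gene, was at 1.12 CPM untreated, 0.935 with PBS, 0.689 with E. coli and 0.923 with LGG. The summed Hoxc counts were 95, 33, 41 and 65 in the same order, at most 0.502% of all Hox counts. Nearly all Hox RNA in these libraries thus came from the a, b and d clusters.

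Per kilobase of transcript, the level was highest for Hoxb13, at a mean of 166 CPM per kilobase. Hoxb9 followed at 32.0, Hoxa11 at 24.2 and Hoxa10 at 24.1. Hoxd13, the most abundant Hoxd gene, was at 10.1 and Hoxc4 at 0.463 CPM per kilobase. Apart from Hoxb9 and Hoxb13, Hoxb genes from Hoxb2 to Hoxb8 were at 3.42 to 13.2, with Hoxb6 the highest of them. All of the 4 leading genes belong to the posterior groups.

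**Figure D1:**
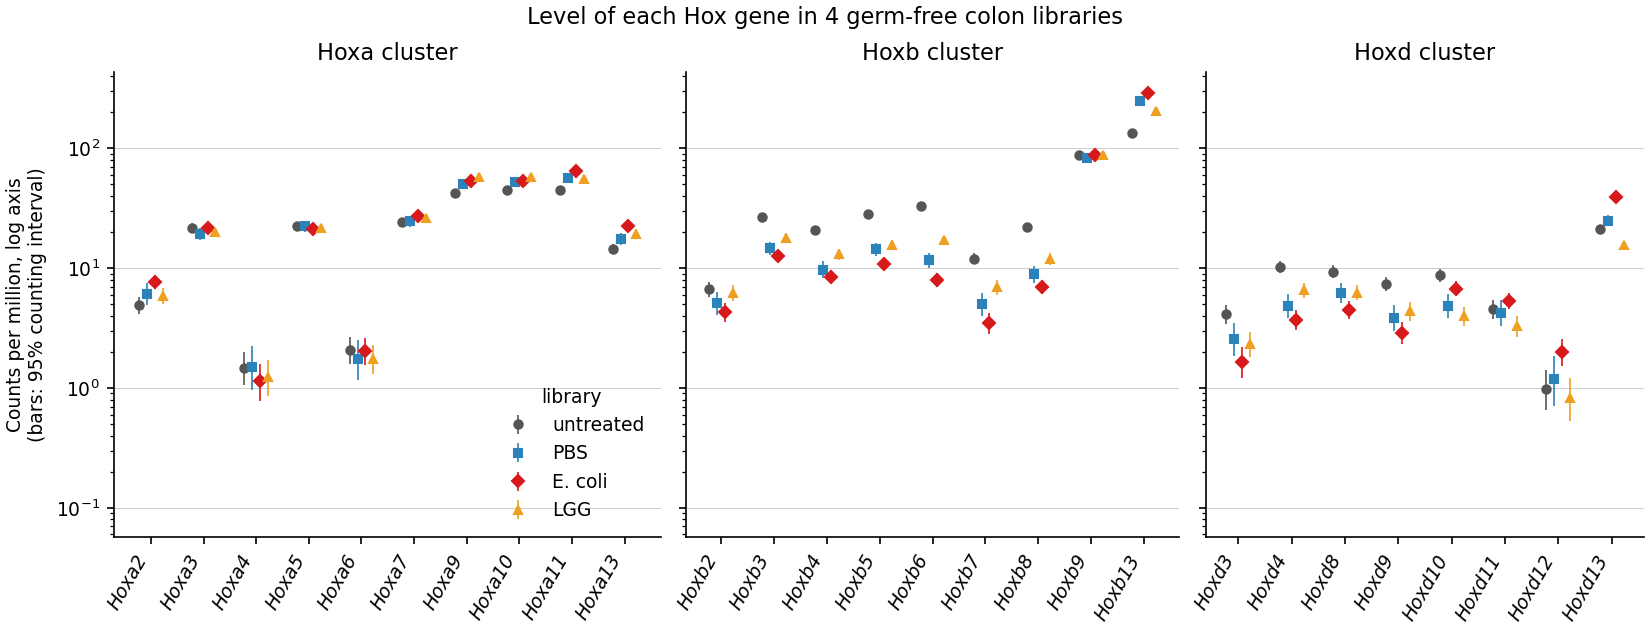
The y axis gives CPM on a log scale for the 27 Hox genes with a mean of at least 1 CPM, by cluster and paralog number on the x axis, with 1 symbol per library and bars for the 95% counting interval. Hoxb13 stands highest in every library, and the untreated library is the highest of the 4 for Hoxb2 to Hoxb8.

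Over the 6 possible pairs of libraries, 14 of the 27 Hox genes above the filter (51.9%) were past the size rule at least once, beside 474 of 14450 genes in all (3.28%). The median ratio between the highest and the lowest library was 2.08-fold for these 27 genes and 1.19-fold for all genes tested. The other 12 Hox genes lay below the filter and could not be past the rule. Of the 14, 7 were Hoxb genes (Hoxb3 to Hoxb8 and Hoxb13) and 7 were Hoxd genes (Hoxd3, Hoxd4, Hoxd8 to Hoxd10, Hoxd12 and Hoxd13). None of the 10 measured Hoxa genes was among them. In whole tissue, fewer cells of a type and less RNA per cell cannot be told apart.

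The untreated library had the highest level for 9 of the 11 measured central genes, whereas it was highest for 33.6% of all genes. E. coli had the lowest level for 9 of these 11, beside 21.4% of all genes. Among the 11 measured posterior genes, E. coli was highest for 6, beside 22.2% of all genes, and the untreated library lowest for 5, beside 34.2%. PBS was highest for 1 of the 27, Hoxa4, beside 20.2% of all genes. The levels of Hoxa4, 1.14 to 1.496 CPM, lay within counting error of each other.

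The central Hoxb genes showed the widest range. Hoxb6 (NM_008269, chromosome 11, 96160485 to 96162883 in mm9) was at 33.1 CPM untreated, 11.7 with PBS, 7.95 with E. coli and 17.0 with LGG. The untreated library was highest and E. coli lowest, a 4.16-fold span, and no counting interval of a pair included 0. Hoxb7, its 5′ neighbour, was at 11.98, 4.99, 3.48 and 6.90 CPM in the untreated, PBS, E. coli and LGG libraries. Hoxb8 was at 22.0, 8.85, 6.95 and 11.9 CPM in that order. Hoxb5 was at 28.4, 14.3, 10.9 and 15.6 CPM, with PBS and LGG within counting error of each other.

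Toward the 3′ end of the cluster the span narrowed. Hoxb4 was at 20.7, 9.72, 8.47 and 12.99 CPM in the untreated, PBS, E. coli and LGG libraries, and Hoxb3 at 26.7, 14.6, 12.5 and 17.9 CPM. Both had the same order of libraries as Hoxb6, but their E. coli and PBS levels lay within counting error of each other. Hoxb2, the last measured gene at that end, was at 6.66, 5.11, 4.27 and 6.22 CPM. Its span was 1.56-fold, and its LGG and untreated levels did not differ beyond counting error. Hoxb2 was also the only gene of this run that was past the size rule in no pair.

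The posterior end of the same cluster did not follow. Hoxb9, separated from Hoxb8 by 5.31 kb, was at 87.1, 83.1, 87.4 and 87.6 CPM in the untreated, PBS, E. coli and LGG libraries, and no pair of libraries differed beyond counting error. Hoxb13 (NM_008267, chromosome 11, 96055675 to 96057913 in mm9), separated from Hoxb9 by 74.7 kb, was at 134 CPM untreated, 248 with PBS, 286 with E. coli and 203 with LGG. Its order of libraries was the reverse of that of Hoxb6. Hoxb13 alone held 20.2% of all Hox counts in the untreated library (95% Wilson interval 19.6 to 20.7), 35.0% in PBS (34.1 to 35.9), 37.1% in E. coli (36.5 to 37.8) and 29.4% in LGG (28.7 to 29.98).

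The Hoxd cluster also changed direction along its length, at a different place. Hoxd4 was at 10.3 CPM untreated, 4.86 with PBS, 3.72 with E. coli and 6.56 with LGG. Hoxd3 was at 4.13, 2.55, 1.65 and 2.32 CPM, Hoxd8 at 9.32, 6.23, 4.48 and 6.25, and Hoxd9 at 7.43, 3.86, 2.89 and 4.37, all in that order of libraries. For each of these 4 genes the untreated library was highest and E. coli lowest.

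Hoxd10 was at 8.69 CPM untreated, 4.86 with PBS, 6.75 with E. coli and 3.96 with LGG, so that LGG, not E. coli, was lowest. Hoxd11 was at 4.52, 4.24, 5.34 and 3.28 CPM and Hoxd12 at 0.981, 1.18, 2.00 and 0.820 CPM in the same order. Hoxd13 (NM_008275, chromosome 2, 74506367 to 74509656 in mm9) was at 21.2, 24.9, 39.1 and 15.4 CPM. E. coli was highest and LGG lowest for Hoxd11, Hoxd12 and Hoxd13 alike. Hoxd13 is best known for its role in forming digits and the end of the gut.

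Levels of Hoxa genes lay closer together. Hoxa5 was at 22.4, 22.3, 21.2 and 21.6 CPM in the untreated, PBS, E. coli and LGG libraries, and Hoxa3 and Hoxa7 spanned 1.12-fold and 1.13-fold. Hoxa11 was at 44.5, 56.3, 64.8 and 55.8 CPM and Hoxa13 at 14.5, 17.4, 22.6 and 19.4 CPM. The untreated library was lowest for each of Hoxa9, Hoxa10, Hoxa11 and Hoxa13, the 4 posterior members, with spans of 1.27-fold to 1.56-fold. Hoxa2, at the opposite end, had levels of 4.905, 6.11, 7.64 and 5.88 CPM. Hoxa4 and Hoxa6, at about 1 to 2 CPM, had wide intervals that included 0 in every pair.

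Gavage with vehicle was set beside no gavage by PBS against untreated. Of the Hox genes, 5 were lower past the size rule and none was higher, in a pair where 1.45% of all genes were past it, 0.782% lower and 0.664% higher. They were Hoxb6 (-1.503, 95% counting interval -1.74 to -1.28), Hoxb8 (-1.31), Hoxb7 (-1.26), Hoxb4 (-1.09) and Hoxd4 (-1.08). Hoxb5, at -0.99, lay just outside. Hoxb13 had the highest ratio, 0.89 (0.83 to 0.95). Over the 11 measured central genes the median log2 ratio was -0.99 and over the 11 posterior genes 0.23, beside a median of 0.00 over all genes.

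E. coli against untreated gave the largest Hox differences of any pair. Here 2 Hox genes were higher and 10 lower past the size rule, where 2.35% of all genes were past it, 0.824% higher and 1.53% lower. The 2 higher genes were Hoxb13, at 1.10 (1.04 to 1.15), and Hoxd12, at 1.01 (0.35 to 1.73) from 58 counts against 28. Hoxd12 was at 2.00 CPM in E. coli but 0.981 untreated, 1.18 with PBS and 0.820 with LGG. Its pass of the filter thus leaned on the library where it was high. Scaled by library totals alone, Hoxd12 was at 0.93 and no longer past the rule. Hoxb6 was lowest, at -2.05 (-2.27 to -1.85), followed by Hoxb7 (-1.78), Hoxb8 (-1.66), Hoxd4 (-1.47), Hoxb5 (-1.39), Hoxd9 (-1.35), Hoxd3 (-1.31), Hoxb4 (-1.29), Hoxb3 (-1.09) and Hoxd8 (-1.05). The median was -1.29 over central and 0.32 over posterior genes. Hoxd13, at 0.88 (0.74 to 1.03), lay just outside the rule.

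LGG against untreated showed smaller differences. Hoxd10 was lower past the size rule, at -1.13 (-1.46 to -0.81), and no other Hox gene passed, where 1.04% of all genes did, 0.457% higher and 0.588% lower. With library totals 2 Hox genes were lower. Hoxb6 was at -0.96 (-1.12 to -0.80) and Hoxb8 at -0.88. Hoxb13 was at 0.60 (0.54 to 0.66), whereas Hoxd13 was at -0.46 (-0.63 to -0.28), so the group 13 genes of the b and d clusters lay on opposite sides of 0. All 8 measured Hoxd genes had negative ratios in this pair, as did 7269 of the 14450 genes tested. The interval of Hoxd12 (-1.11 to 0.58) included 0. The comparisons with the untreated library share that library, so their ratios are not independent of each other.

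**Figure D2:**
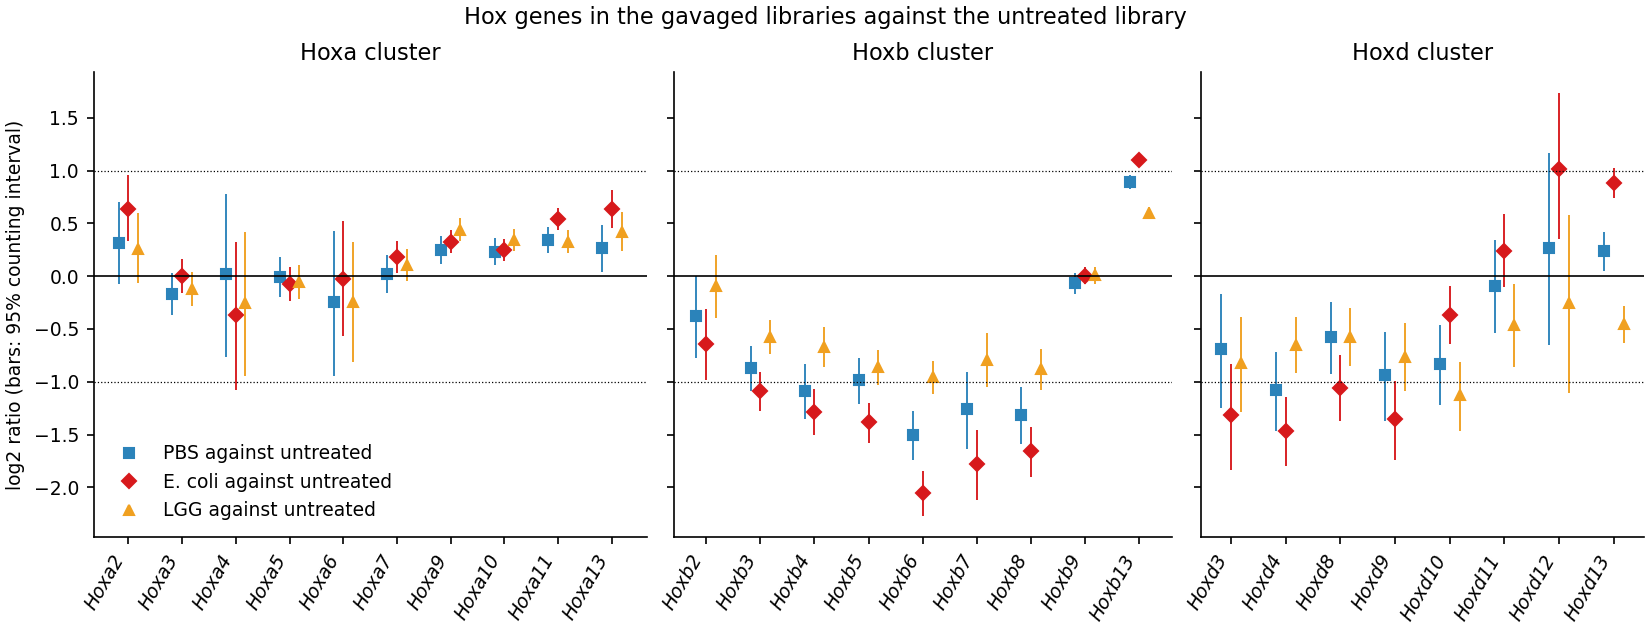
The y axis gives the log2 ratio of the PBS, E. coli and LGG libraries to the untreated library for each measured Hox gene on the x axis, with bars for the 95% counting interval and dotted lines at a 2-fold difference. Hoxb2 to Hoxb8 lie below 0 in all 3 ratios, Hoxb9 lies near 0 and Hoxb13 lies above it, while Hoxd13 is above 0 for PBS and E. coli and below it for LGG.

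Against PBS, neither bacterial library had a Hox gene past the size rule, where 0.415% of all genes were past it for E. coli (0.173% higher, 0.242% lower) and 0.277% for LGG (0.18% higher, 0.0969% lower). In E. coli against PBS, Hoxd12 was at 0.74 (-0.02 to 1.58), Hoxd13 at 0.65 (0.48 to 0.82) and Hoxb6 at -0.55 (-0.84 to -0.26). In LGG against PBS, Hoxb6 was at 0.55 (0.30 to 0.80) and Hoxd13 at -0.69 (-0.89 to -0.49). These ratios share the PBS library and are given side by side only.

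LGG against E. coli sets the bacterial libraries side by side. There 3 Hox genes were past the size rule, where 0.36% of all genes were past it, 0.263% higher and 0.0969% lower. Hoxb6 was higher in LGG, at 1.10 (0.87 to 1.33). Hoxd13, at -1.34 (-1.499 to -1.18), and Hoxd12, at -1.26 (-2.03 to -0.57) from 24 counts against 58, were lower. Hoxd12 passed the filter largely through its level in E. coli. Hoxb7 was at 0.99, just under the rule, and Hoxd4 at 0.82. All 7 genes from Hoxb2 to Hoxb8 had intervals above 0, with ratios of 0.51 to 1.10, as did 2363 of the 14450 genes tested. Hoxd10 (-0.76) and Hoxd11 (-0.70) had intervals below 0, while their neighbour Hoxd9 was at 0.59 (0.19 to 1.01).

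The change of sign between Hoxd9 and Hoxd10 fell within a gap of 2.66 kb. In the Hoxb cluster the sign changed between Hoxb9, at 0.00 (-0.08 to 0.08), and Hoxb13, at -0.50 (-0.55 to -0.45). In the Hoxa cluster the ratios ran from -0.38 for Hoxa2 to 0.11 for Hoxa9, and Hoxa11 and Hoxa13 were both at -0.22. Across the 8 measured Hoxd genes, which share the same pair of libraries, the ratio and the paralog number had a Spearman rho of -0.86. Across 9 Hoxb genes rho was -0.22 and across 10 Hoxa genes 0.12. These values describe genes, which are not independent replicates.

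**Figure D3:**
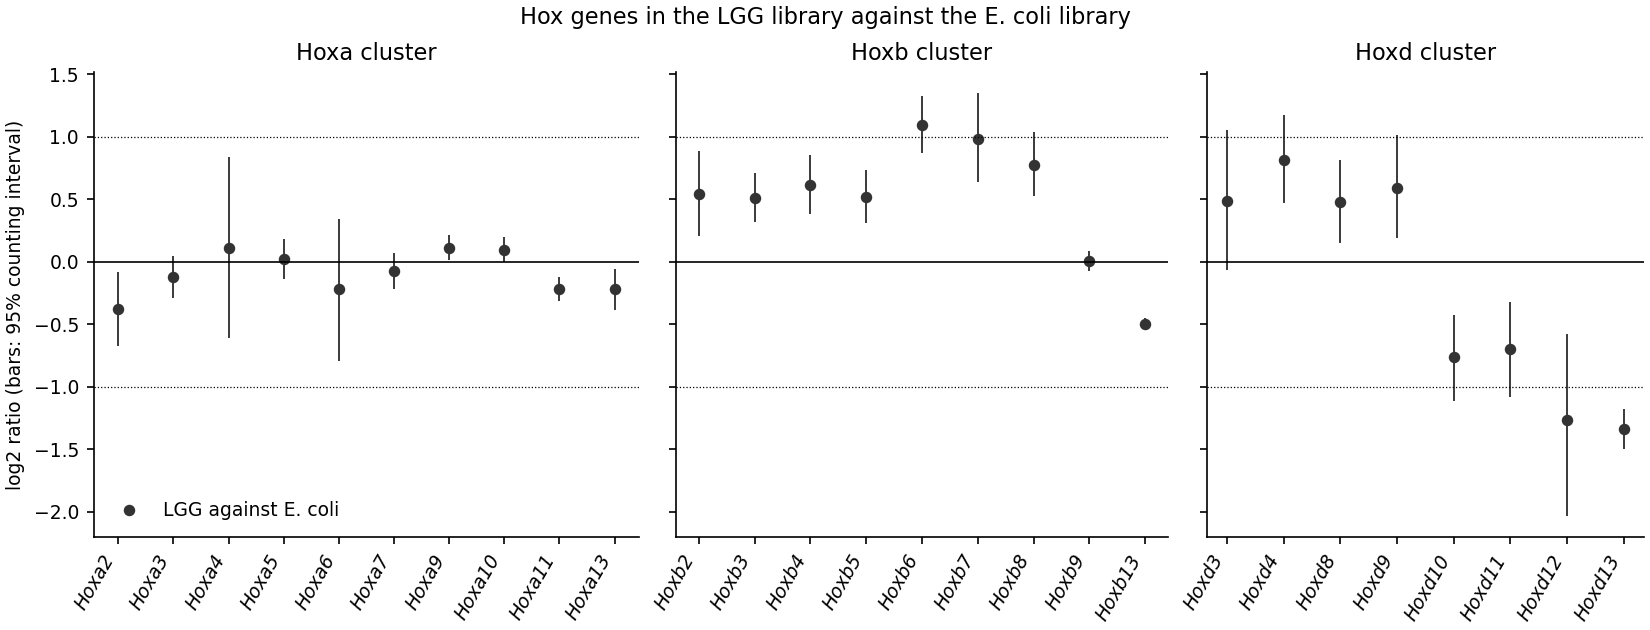
The y axis gives the log2 ratio of the LGG to the E. coli library for each measured Hox gene on the x axis, with bars for the 95% counting interval and dotted lines at a 2-fold difference. Hoxb6 reaches 1.10 and Hoxd13 -1.34, and the ratios change sign between Hoxd9 and Hoxd10 and beyond Hoxb9.

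The promoters of genes at both ends of this pattern are shown because these genes differed in opposite directions between the same libraries. RefSeq promoter sequences on GRCm38.p6 matched 22 of the 39 Hox genes, and the 250 bases before the start site are printed 5′ to 3′ on the gene's strand. Hoxb8 (chr11:96281655-96281904, plus strand) and Hoxd4 (chr2:74721728-74721977, plus strand) were highest in the untreated library. Hoxd12 (chr2:74674763-74675012, plus strand) and Hoxd13 (chr2:74667975-74668224, plus strand) were highest in E. coli. Capitals mark matches on either strand to TTTATG, a Cdx-type motif, AGGTCA, a nuclear receptor motif, TGATNNAT, a motif of Hox and Pbx pairs, or TATAAA, the TATA box.
Hoxb8: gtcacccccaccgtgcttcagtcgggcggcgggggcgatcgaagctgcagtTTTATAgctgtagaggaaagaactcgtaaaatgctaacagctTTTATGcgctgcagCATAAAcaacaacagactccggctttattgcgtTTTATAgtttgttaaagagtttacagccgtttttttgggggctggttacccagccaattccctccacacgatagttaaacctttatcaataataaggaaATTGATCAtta
Hoxd4: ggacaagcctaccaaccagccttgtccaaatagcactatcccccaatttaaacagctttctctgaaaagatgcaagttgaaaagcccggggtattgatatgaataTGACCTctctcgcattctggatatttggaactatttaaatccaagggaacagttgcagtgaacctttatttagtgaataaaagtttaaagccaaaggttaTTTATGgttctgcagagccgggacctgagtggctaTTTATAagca
Hoxd12: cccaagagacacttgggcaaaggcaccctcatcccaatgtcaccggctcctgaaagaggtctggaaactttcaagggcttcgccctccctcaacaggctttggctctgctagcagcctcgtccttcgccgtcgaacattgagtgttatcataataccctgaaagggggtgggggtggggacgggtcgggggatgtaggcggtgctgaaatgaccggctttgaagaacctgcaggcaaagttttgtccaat
Hoxd13: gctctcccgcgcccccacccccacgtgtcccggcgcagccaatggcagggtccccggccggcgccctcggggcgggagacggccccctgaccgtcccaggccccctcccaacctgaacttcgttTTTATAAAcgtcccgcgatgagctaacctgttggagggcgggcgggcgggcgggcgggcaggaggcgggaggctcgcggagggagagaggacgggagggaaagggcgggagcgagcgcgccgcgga

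The Hoxb8 window held TTTATG 2 times, on opposite strands, and the Hoxd4 window held it once, while the Hoxd12 and Hoxd13 windows had no match to it. Matches went both ways over the other Hox windows. Hoxd3, highest in the untreated library, had 1, whereas Hoxa5, Hoxa6, Hoxb4, Hoxd8, Hoxd9 and Hoxd10, also highest there, had none. Of genes highest in E. coli, Hoxa2, Hoxa3, Hoxa11 and Hoxa13 had none, Hoxa7 had 2 and Hoxd11 had 1 in 1 of its windows. However, Hoxa3, Hoxa5 and Hoxa7 spanned only 1.12-fold, 1.06-fold and 1.13-fold, and Hoxa6 differed beyond counting error in no pair. The Hoxd11 levels in E. coli, PBS and untreated lay within counting error of each other. Over all 32851 promoter windows of this length 10.8% held TTTATG, as did 5 of the 24 windows of Hox genes. AGGTCA was found in 14.02% of all windows and in 6 of the 24, TGATNNAT in 7.68% and 4, and TATAAA in 12.4% and 4. In the Hoxd13 window the TATA box matched on both strands, over bases that overlap. Bases G and C made up 74.4% of the Hoxd13 window, 55.6% of Hoxd12, 44.4% of Hoxb8 and 40.4% of Hoxd4. A match describes letters in this window and is not evidence of binding.

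A balance within each library was formed from the summed counts of posterior over central genes, which does not depend on library scaling. It was 2.18 untreated, 4.88 with PBS, 6.30 with E. coli and 3.92 with LGG. E. coli thus had the most posterior balance and the untreated library the least, a log2 difference of 1.53 (1.46 to 1.60). LGG against E. coli gave -0.69 (-0.76 to -0.61), PBS against untreated 1.16 (1.07 to 1.249) and LGG against untreated 0.84 (0.77 to 0.91). E. coli against PBS gave 0.37 (0.28 to 0.46) and LGG against PBS -0.32 (-0.41 to -0.23). No interval included 0, although the intervals leave out the spread between animals. Without Hoxb13, the balance was 1.47, 2.67, 3.41 and 2.35 in the untreated, PBS, E. coli and LGG libraries.

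The clusters differed in this balance. For Hoxb it was 1.90 untreated, 6.68 with PBS, 9.91 with E. coli and 4.505 with LGG. For Hoxd it was 2.18, 3.52, 6.84 and 2.18 in that order, and LGG against untreated gave a log2 difference of -0.00 (-0.24 to 0.23). For Hoxa it was 2.91, 3.53, 3.74 and 3.74, and LGG against E. coli gave 0.00 (-0.12 to 0.12). The LGG and untreated libraries thus did not differ in Hoxd balance beyond counting error and were 1.245 apart (1.15 to 1.34, log2) in Hoxb balance.

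**Figure D4:**
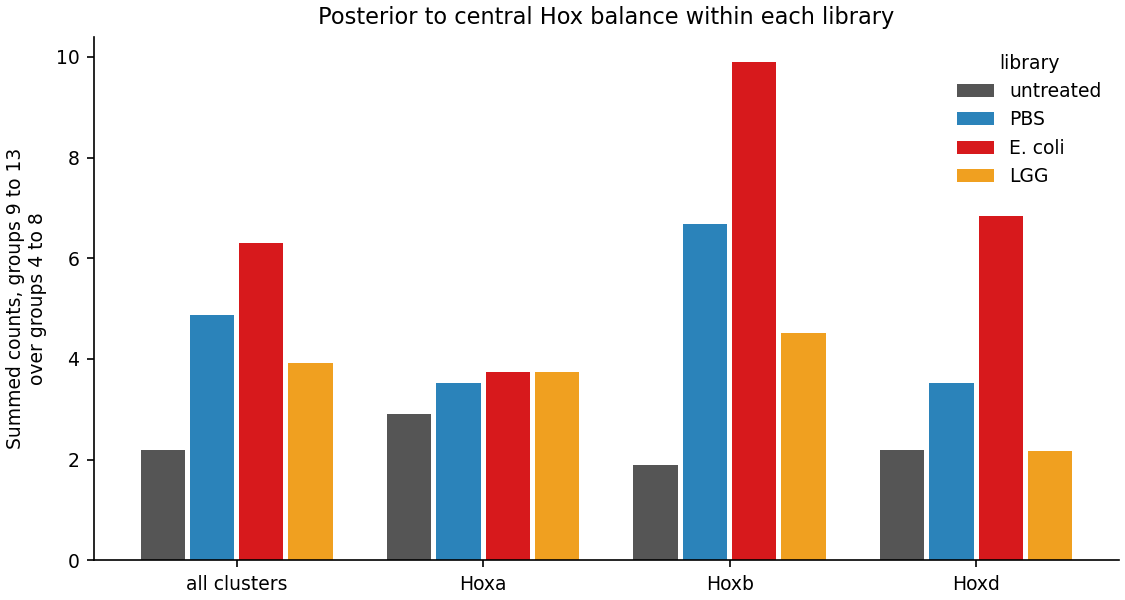
Bars give the summed counts of Hox groups 9 to 13 divided by those of groups 4 to 8 in each library, over all clusters and for the a, b and d clusters alone. E. coli has the tallest bar for all clusters, Hoxb and Hoxd, and the Hoxa bars lie between 2.91 and 3.74.

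By paralog group, the summed level of group 13 ran from 169 CPM in the untreated to 348 in the E. coli library, with 290.3 in PBS and 238 in LGG. Group 6 was at 35.6 CPM untreated, 13.5 with PBS, 10.1 with E. coli and 19.2 with LGG. Group 9 was nearly level in sum, at 137, 137, 143 and 149 CPM, and most of that sum was Hoxb9. Its other members differed in direction. Hoxa9 ran from 42.1 CPM untreated to 57.1 with LGG, and Hoxd9 from 7.43 CPM untreated to 2.89 with E. coli. Group 7 was at 36.1, 29.5, 30.8 and 32.9 CPM, and within it Hoxa7 spanned 1.13-fold over the libraries and Hoxb7 3.45-fold. Paralogs of group 5 also differed in span: Hoxa5 spanned 1.06-fold and Hoxb5 2.62-fold.

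Non-coding RNAs are transcribed from the Hox clusters beside the coding genes. Hoxa11os, the antisense partner of Hoxa11, was at 112 CPM untreated, 157 with PBS, 188 with E. coli and 156 with LGG. It overlaps Hoxa11 on the opposite strand, and without known strand use their shared reads cannot be told apart. Hottip, transcribed from the posterior tip beyond Hoxa13 and known to maintain active chromatin there, was at 17.0, 29.7, 37.3 and 30.3 CPM. It was past the size rule in E. coli against untreated, at 1.13 (0.98 to 1.29). Hoxaas3, which overlaps Hoxa3, Hoxa5 and Hoxa6, was at 5.12, 4.49, 5.16 and 5.57 CPM. Hotair, a Hoxc transcript, had 6, 0, 0 and 1 counts. The spans of 8 Hox genes overlap another row of the table, among them Hoxa3 to Hoxa6 and the pair Hoxd3 and Hoxd4, so that reads could be split between these genes and their values are less certain.

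Genes that flank the clusters were compared as well. Of 7 measured flanking genes, Evx1, a homeobox gene beyond Hoxa13, was higher past the rule in PBS, E. coli and LGG against untreated. No other flanking gene passed in any pair, beside 3.28% of all genes past the rule in at least 1 pair. From 20 to 64 counts, Evx1 was at 0.701 CPM untreated, 1.496 with PBS, 1.72 with E. coli and 2.19 with LGG. Mtx2 and Smug1, at the far ends of the Hoxd and Hoxc clusters, had ratios between -0.09 and 0.29 in all 6 pairs. Skap2, which flanks Hoxa, was at 0.36 in PBS, 0.46 in E. coli and 0.37 in LGG against untreated, with every interval above 0.

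Cofactors are proteins that bind DNA together with Hox proteins. Beside 3.28% of all genes past the rule in at least 1 pair, none of the 8 measured cofactor genes of the Pbx, Meis and Pknox families was past the rule in any pair. Meis1 was at 24.5 CPM untreated, 20.4 with PBS, 15.4 with E. coli and 19.5 with LGG, with a ratio of -0.67 in E. coli against untreated. None of the 20 measured Polycomb and trithorax genes, which keep Hox genes silent or active, was past the rule, with medians from -0.07 to 0.02. With so few genes, both counts lie near the share of all genes.

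Of 11 measured upstream regulators, Cyp26b1, which degrades retinoic acid, an inducer of Hox genes, was the single gene past the rule in any pair, beside 3.28% of all genes. It was at 6.69 CPM untreated, 2.37 with PBS, 2.69 with E. coli and 1.74 with LGG, and was lower in each gavaged library against untreated. Cdx2, an intestinal homeobox factor that acts on Hox genes, was at 236, 149, 148 and 225 CPM. Its PBS and E. coli levels lay within counting error of each other, while its LGG to untreated ratio was -0.07 (-0.12 to -0.02). Its LGG to E. coli ratio was 0.60. Cdx1 was at 255, 268, 291 and 300.3 CPM.

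Among 19 measured regional transcription factors of the gut, 3 were past the rule in at least 1 pair, beside 3.28% of all genes. Osr2, an odd-skipped zinc-finger factor, was at 57.0 CPM untreated, 22.8 with PBS, 17.1 with E. coli and 30.1 with LGG. Isx, an intestinal homeobox factor that restrains vitamin A uptake, was at 104, 46.6, 36.0 and 61.5 CPM, and Tbx3 at 58.9, 31.2, 28.5 and 36.8 CPM. These 3 genes had the order of libraries seen for Hoxb6. For Tbx3, however, the E. coli and PBS levels lay within counting error of each other, at -0.13 (-0.29 to 0.03).

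Genes of sodium uptake in the distal colon were set beside the posterior Hox genes. Scnn1g, a subunit of the epithelial sodium channel, was at 11.8 CPM untreated, 29.9 with PBS, 29.7 with E. coli and 17.8 with LGG, and Scnn1b at 16.4, 27.9, 32.6 and 22.8 CPM. All 5 measured distal genes had positive ratios in PBS against untreated, with a median of 0.49, as did 50.3% of all genes tested. In LGG against E. coli all 5 had negative ratios, with a median of -0.24, as did 7236 of the 14450 genes tested. Beside 3.28% of all genes past the rule in at least 1 pair, only Scnn1g of the 5 distal genes passed. It was higher in PBS and in E. coli against untreated. Of the 5 genes listed as proximal, only Osr2 passed, lower in the same pairs. Car4, a carbonic anhydrase in the same list, was lowest in the untreated library, at 787 CPM against 1535 in PBS, so the proximal list did not move as a whole.

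**Figure D5:**
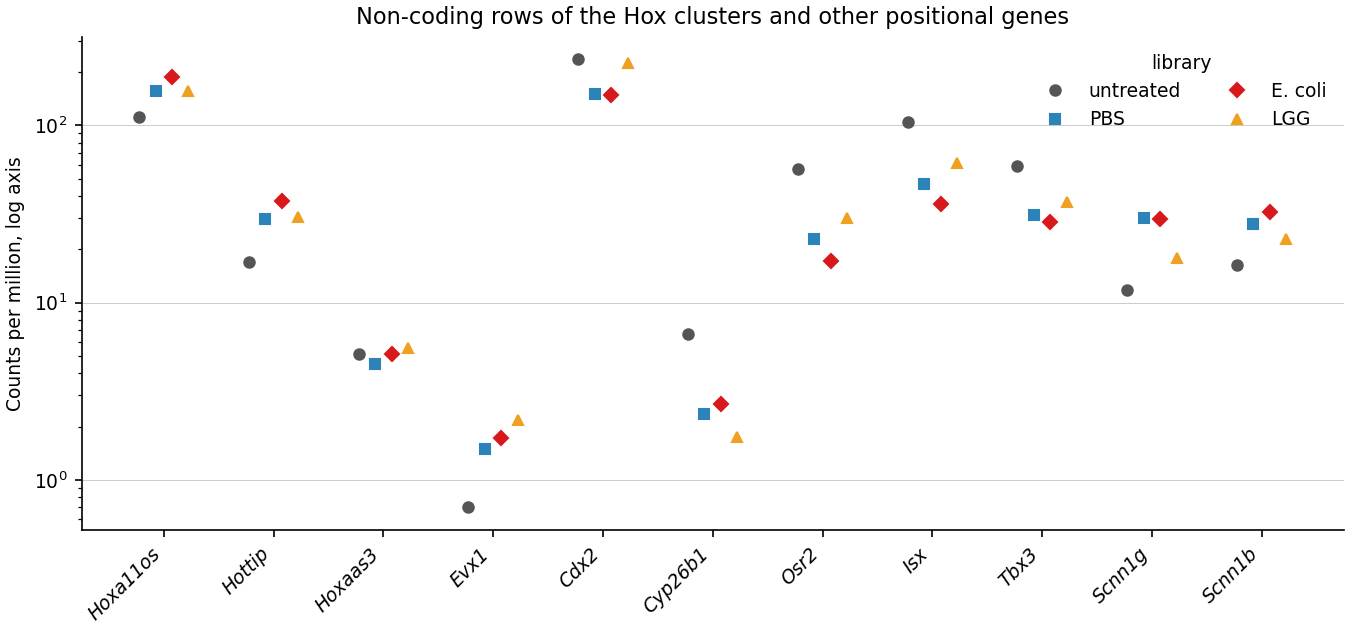
The y axis gives CPM on a log scale in the 4 libraries for non-coding rows of the Hox clusters, Evx1 and other positional genes named on the x axis. Osr2, Isx and Tbx3 are highest in the untreated library and lowest in E. coli, and Scnn1b is the reverse.

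Cell type markers moved between the same libraries, and their part in the Hox differences was not tested. Epithelial markers of colon (11 of 11 measured, among them Car1, Slc26a3 and Muc2) summed to 23793 to 26848 CPM, so the labelled tissue's defining markers were present. Smooth muscle markers (8 of 8) summed to 10427 CPM in E. coli and 12420 in the untreated library, with 11447 in PBS and 11401 in LGG. Fibroblast markers (6 of 6) lay between 1974 and 2426 CPM. Enteric neuron and glia markers (8 of 8) were at 127 CPM untreated, 94.1 with PBS, 83.3 with E. coli and 99.4 with LGG.

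Wider differences were found in markers of tissue that is no part of the colon wall's epithelium and muscle. Adipocyte markers (6 of 6) were at 151, 111, 71.8 and 149.7 CPM in the untreated, PBS, E. coli and LGG libraries. Mesothelial markers (6 of 6) summed to 2815 to 3570.5 CPM, nearly all from Krt19, which epithelium also makes. Of the 6, 5 were lower past the rule in E. coli against untreated, beside 1.53% of all genes. Pancreatic acinar markers (8 of 8) were at 3.43, 18.9, 73.1 and 40.2 CPM, and small intestinal markers (7 of 7) at 180.5, 55.6, 59.0 and 86.1 CPM. The median log2 ratio of the small intestinal markers was -2.63 in E. coli against untreated and -2.09 in PBS against untreated. In E. coli against PBS it was -0.49, with 5 markers lower and 2 higher, so the sums do not stand for each marker. No marker of these lists was at 0 in any library, the lowest being Akp3 with 1 count in E. coli.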

How the data were processed

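Colon RNA was prepared with a TruSeq RNA v2 kit, per the labels' protocols. The submitters' processing notes name TopHat2, HOMER and build mm9; what each did, its version and any use of strand are not stated in these sources. For 24016 RefSeq genes the authors deposited expected counts in steps of 0.5, of unstated origin, which were rounded to whole numbers.

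TMM factors came from edgeR 4.0.16 in R 4.3.3. Log2 ratios added 0.5 counts, in proportion to each library's size, and had exact conditional binomial intervals, computed with Python 3.11.15, numpy 2.4.6, scipy 1.17.1 and pandas 2.3.3. The filter kept 14450 genes. Balances have exact conditional odds ratio intervals. Because reads can be copies of a molecule, the intervals, and the 3 counts that a 0 allows, cover counting error only. The size rule and intervals were tried on simulated counts that held counting error only, so the trial says nothing about spread between animals. Figures used matplotlib 3.10.9. No p-value is given, because each condition has 1 library.

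The members, lists, motifs and balance were chosen with earlier results of these data known. Named were Hox genes past the size rule, group 13 members and the most abundant member of each cluster. Of other lists, up to 3 members past the rule or the 2 most abundant were to be named, and further genes, such as Hoxb9, Cdx2, Scnn1b and Car4, were chosen after their values were seen. Results for a few genes are not reported here. Alternatives were DESeq2 1.42.0 size factors, library totals, upper-quartile factors, other filters, priors and thresholds, and other sets of posterior genes.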

Additional observations from a re-analysis of the deposited data

How the results depend on the processing

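No paired analysis was possible because each condition has 1 library, so no library could be left out either, and the spread between animals was not measured. With a 1.5-fold threshold, Hox genes past the rule numbered 11 in PBS against untreated, 1 for each bacterium against PBS, 10 in LGG against E. coli and 10 in LGG against untreated. In LGG against untreated the number was 2 both with library totals and with no expression filter. E. coli against untreated kept a number of Hox genes between 9 and 16 under every alternative.

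Over all genes the numbers past the rule, in the order PBS against untreated, E. coli against PBS, LGG against PBS, LGG against E. coli, E. coli against untreated and LGG against untreated, were 358, 135, 106, 162, 597 and 333 with no filter. With a mean of at least 5 CPM they were 85, 10, 6, 13, 152 and 51, and with a 1.5-fold threshold 855, 212, 227, 316, 1199 and 760. Fewer or more genes could be counted under these filters by construction.

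With groups 10 to 13 as posterior, the log2 balance was 1.33 in PBS against untreated, -0.81 in LGG against E. coli, 1.74 in E. coli against untreated and 0.93 in LGG against untreated. With groups 12 and 13 it was -0.50 in LGG against PBS, 1.52 in PBS against untreated, -0.94 in LGG against E. coli, 1.97 in E. coli against untreated and 1.02 in LGG against untreated. As a difference of median log2 ratios it was 0.59 in E. coli against PBS, 1.61 in E. coli against untreated, -0.14 in LGG against PBS and 0.66 in LGG against untreated. Without Hoxb13, an alternative chosen after the data were seen, it was 0.86 in PBS against untreated, -0.18 in LGG against PBS, -0.53 in LGG against E. coli, 1.21 in E. coli against untreated and 0.68 in LGG against untreated. No balance changed sign.

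Library totals in place of TMM moved the median of all genes by -0.09 in PBS against untreated, -0.08 in E. coli against untreated and -0.10 in LGG against untreated. Single ratios were recomputed for 17 Hox genes, and of these Hoxb13 moved beyond its counting interval, to 0.80, 1.01 and 0.50 in these pairs. Genes outside these 17 were not recomputed one by one. Of all genes past the rule, those higher and lower numbered 73 and 156, 90 and 281, and 54 and 133, in place of 96 and 113, 119 and 221, and 66 and 85. The cause was not tested.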
